A study of Mus musculus with 8 samples.

Results

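The beta-defensins are a family of genes for small secreted peptides, and 41 of them were measured in the epididymal fat pad of 8 mice. Members were all genes whose symbol is Defb followed by a number, and they are 41 of the 22180 genes that had a probe set naming a single gene. RefSeq's gene table of assembly GRCm38.p6 lists 42 such symbols. The remaining one, Defb41, had only a probe set that also names another gene. Each member was read by 1 probe set, and no member was left out for a low value.

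The tissue was the left epididymal fat pad, a white fat depot that lies against the epididymis, taken from male C57BL/6 mice with 1 Affymetrix Mouse Gene 2.0 ST array per mouse. Every mouse was fed from weaning at 3 weeks of age on a diet high in n-6-rich fat, which supplied 45% of the calories. From 6 weeks of age 4 mice (GC+) received prednisolone, a synthetic glucocorticoid, each day in sweet potato puree at 40 mg/kg/m2 as the dose is labelled, and 4 control mice (GC-) received puree without the drug. Treatment lasted 4 weeks, fat was taken at 10 weeks of age, and the comparison asks what the drug changes in this depot. The groups are called prednisolone and vehicle here, and mice carry their label's replicate number. Values are log2 expression values, and values of different genes come from different probes, so levels were compared between mice within a gene and never between genes.

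Beta-defensins carry conserved cysteines joined by disulfide bonds, and many kill microbes on epithelial surfaces. In rodents a large share of the family is made by the epithelium of the epididymis, where the peptides enter the lumen and coat maturing sperm. That epithelium is divided into segments along the duct, and many of its genes are switched on in only some of them.

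The promoters of 4 members are shown to set the main patterns beside their sequence, each the 250 bases before the transcription start in RefSeq on GRCm38.p6, written 5′ to 3′ along the gene. Defb39 (chr8:19064922-19065171, minus strand) had the widest spread between mice. Defb48 (chr14:62984511-62984760, minus strand) and Defb20 (chr2:152476813-152477062, plus strand) followed other epididymal genes than Defb39 did. Defb8 (chr8:19447607-19447856, minus strand) hardly varied. Capitals mark matches to ACANNNTGT, whose ends are the inverted repeat of the DNA element known for glucocorticoid and androgen receptors, or to TGTTCT, the common right arm of that element, which reads AGAACA on the other strand.
Defb39: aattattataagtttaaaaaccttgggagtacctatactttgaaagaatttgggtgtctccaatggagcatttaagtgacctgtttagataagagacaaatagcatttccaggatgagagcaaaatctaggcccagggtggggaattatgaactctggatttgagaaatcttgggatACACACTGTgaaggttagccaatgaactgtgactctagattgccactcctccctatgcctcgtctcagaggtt
Defb48: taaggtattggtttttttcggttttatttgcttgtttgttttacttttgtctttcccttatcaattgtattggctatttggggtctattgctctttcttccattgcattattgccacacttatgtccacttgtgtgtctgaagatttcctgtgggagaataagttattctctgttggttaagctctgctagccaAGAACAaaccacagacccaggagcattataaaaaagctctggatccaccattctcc
Defb20: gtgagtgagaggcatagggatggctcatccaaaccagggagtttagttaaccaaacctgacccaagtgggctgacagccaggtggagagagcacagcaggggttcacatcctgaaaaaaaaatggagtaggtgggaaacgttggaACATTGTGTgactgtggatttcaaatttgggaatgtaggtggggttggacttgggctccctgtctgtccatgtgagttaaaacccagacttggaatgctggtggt
Defb8: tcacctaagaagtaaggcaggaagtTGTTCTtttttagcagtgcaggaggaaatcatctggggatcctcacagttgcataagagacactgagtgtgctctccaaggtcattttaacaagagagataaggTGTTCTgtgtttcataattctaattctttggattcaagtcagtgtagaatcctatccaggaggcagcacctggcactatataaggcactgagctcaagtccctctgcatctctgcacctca
RefSeq promoters were held for 28 of the 41 members, 29 promoters in all. Searched on both strands, TGTTCT occurred in 13 of these 29 (44.8%) and in 16.1% of all 32851 promoters of the same length. It was in 44.4% of the promoters of members with a range of at least 2 and in 45.5% of the promoters of the others, so both shares were close. ACANNNTGT, which is its own reverse complement, occurred in 4 of 29 (13.8%) and in 5.84% of all promoters. The median GC content was 48.0% in member promoters and 52.4% in all promoters. Some member promoters resemble each other around the match, as those of Defb3, Defb46 and Defb8 do. The 13 with TGTTCT are thus not independent, and their share was not tested against that of all promoters. A match describes letters only and is not a binding site.

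The arrays as a whole were alike: array medians lay between 6.09 and 6.13, pairs of arrays correlated at 0.946 to 0.991 across genes, and no arrays held identical values. Adipocyte markers marked every array as fat, with a mean over 13 genes of 12.21 to 12.47 in prednisolone mice and 12.03 to 12.44 in vehicle mice. Markers of epididymal epithelium did not stay level. Their mean over 27 genes was 7.49, 9.80, 5.55 and 5.69 in prednisolone mice 1 to 4 and 10.15, 5.55, 6.24 and 9.06 in vehicle mice 1 to 4. Vehicle mice 1 and 4 and prednisolone mouse 2 therefore stood apart from the others. Calls and group differences that rest on these mice, and correlations of some members, are given below without some or all of them. Correlations of genes outside the members and of marker lists are given over all 8 arrays only. Counts of wide ranges are given only without single mice. In bulk tissue, fewer cells of a type and less RNA per cell cannot be told apart.

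As references for how members moved from mouse to mouse, 3 epididymal genes that are not defensins were used. Gpx5, an epididymal glutathione peroxidase secreted onto sperm, read 11.27, 13.81, 4.57 and 4.76 in prednisolone mice 1 to 4 and 13.78, 4.19, 8.69 and 13.60 in vehicle mice 1 to 4. Lcn9, a lipocalin of the epididymis, read 9.99, 13.61, 5.45 and 5.59, then 10.12, 5.76, 7.31 and 5.81. Rnase9, a ribonuclease-family protein of the epididymis, read 7.00, 8.84, 4.25 and 5.91, then 13.24, 4.06, 5.96 and 12.89. The mice thus differed in which reference was high: prednisolone mouse 2 was highest for Gpx5 and Lcn9, vehicle mouse 1 for Rnase9, and vehicle mouse 4 was high for Gpx5 and Rnase9 but low for Lcn9. Over the 8 arrays Pearson's r was 0.87 between Gpx5 and Rnase9, 0.71 between Gpx5 and Lcn9 and 0.37 between Lcn9 and Rnase9, given as a description, with rho of 0.93, 0.86 and 0.74.

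Most beta-defensins varied strongly between mice. A range, the highest minus the lowest array, of at least 2 on the log2 scale (4-fold) was found in 26 of 41 members, against 3.27% of all 22180 genes. The median range was 4.34 in members and 0.56 in all genes. Ranges of at least 4 were found in 22 members, of at least 6 in 11 and of at least 8 in 5. The nearest members above the limit of 2 were Defb19 (2.39) and Defb40 (2.42), and the nearest below it were Defb43 (1.79) and Defb34 (1.69). Of the 26 variable members, 23 were highest in vehicle mouse 1 and the other 3 in prednisolone mouse 2. The count of variable members was not made without these mice and vehicle mouse 4 together. In the remaining mice Defb30 lay between 5.76 and 6.06, and Defb39 between 3.77 and 6.30. In 21 of the 26 the lowest array lay below 5.82, the limit of the dimmest 33.3% of genes, where log2 values from this method are compressed and the range may be understated. Averaged over these 26 members, the level was 6.45, 7.23, 4.97 and 4.99 in prednisolone mice 1 to 4 and 10.00, 4.96, 5.20 and 8.97 in vehicle mice 1 to 4. This mean is not a separate result, since the members were picked for a wide range and 23 were highest in vehicle mouse 1. Averaged over all 41 members it was 5.91, 6.40, 4.96 and 4.95, then 8.24, 4.97, 5.05 and 7.53.

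**Figure D1:**
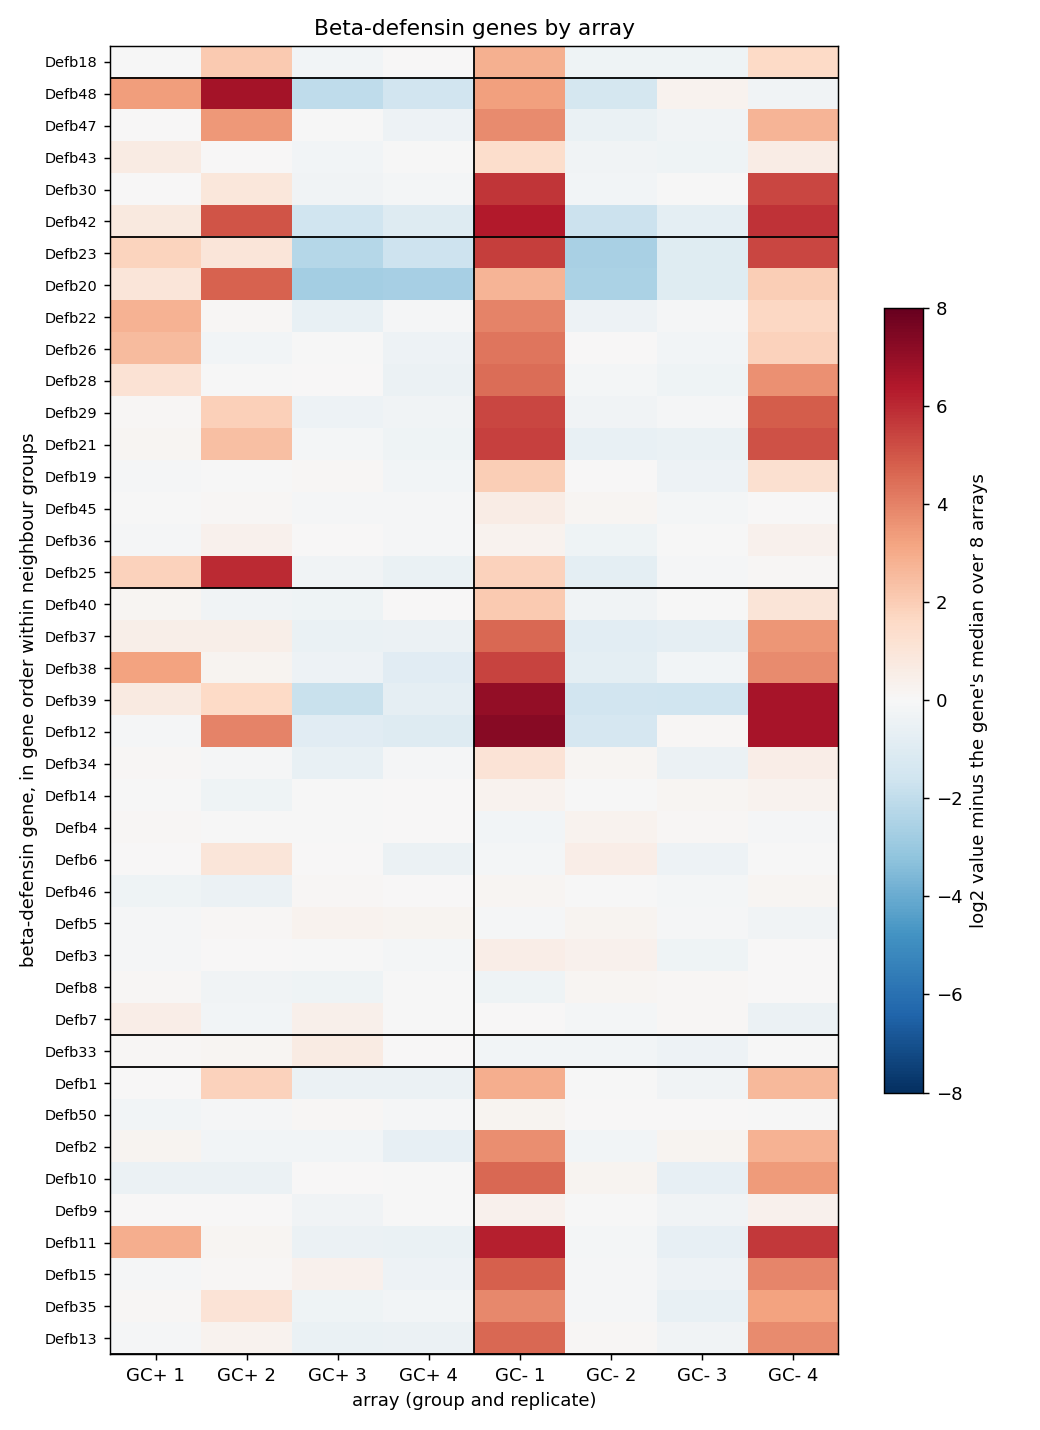
Log2 value of each of the 41 beta-defensins in each of the 8 mice, shown as the difference from that gene's median over all mice, with members in RefSeq order within their neighbour groups. Vehicle mice 1 and 4 carry the strongest positive differences for most members, and prednisolone mouse 2 carries them for Defb48, Defb20 and Defb25.

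The leading pattern was a strong reading in vehicle mice 1 and 4. Defb39, a member of a group of defensins first found in the epididymis, read 6.30, 7.20, 3.77 and 4.87 in prednisolone mice 1 to 4 and 12.62, 4.07, 3.98 and 12.16 in vehicle mice 1 to 4. Vehicle mice 1 and 4 were far above all others, the remaining vehicle mice were among the lowest, and the range of 8.85 equals a 461-fold difference on the array scale. Defb12 read 4.93, 9.01, 4.08 and 3.96, then 12.32, 3.66, 5.10 and 11.59. Here prednisolone mouse 2 was intermediate, between vehicle mice 1 and 4 and the rest. Defb23, which lies in another part of the genome, read 9.94, 9.11, 5.89 and 6.50, then 13.70, 5.57, 7.19 and 13.51, with both prednisolone mice 1 and 2 intermediate. Defb42, known from epididymal epithelium, read 6.83, 11.12, 4.50 and 5.03, then 12.41, 4.33, 5.32 and 11.87, and its prednisolone mouse 2 came close to vehicle mouse 4.

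Defb30 read 6.06, 6.95, 5.76 and 5.88 in prednisolone mice 1 to 4 and 11.78, 5.86, 6.04 and 11.38 in vehicle mice 1 to 4, the sharpest split of those named: the gap between vehicle mouse 4 and the next array was 73.7% of its range. Defb29 read 6.96, 8.74, 6.42 and 6.55, then 12.20, 6.56, 6.72 and 11.68, and Defb21 read 5.46, 7.74, 5.15 and 4.98, then 10.79, 4.70, 4.76 and 10.38. In both genes prednisolone mouse 2 came after vehicle mice 1 and 4 and the other 5 mice lay close together. In all, vehicle mice 1 and 4 were the top pair in 19 of the 26 variable members. How often they were the top pair among all genes with such a range was not counted. In 13 of the 26 the largest gap between neighbouring arrays took more than 50% of the range. Among these, Defb13 read 4.81, 5.14, 4.38 and 4.39, then 9.45, 4.94, 4.61 and 8.66, and Defb2, an inducible defensin of epithelia, read 5.96, 5.56, 5.55 and 5.12, then 9.46, 5.56, 5.95 and 8.56. Defb1, the constitutive beta-defensin of many epithelia, read 4.48, 6.28, 3.99 and 4.02, then 7.37, 4.44, 4.21 and 7.05, with a range of 3.38 that was among the smaller ones of the variable members.

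To measure likeness, each gene's log2 value was fitted on that of a reference gene over the 8 arrays in limma, with p-values adjusted by Benjamini-Hochberg over 22179 genes. With Rnase9, 23 of 41 members had a positive slope past the adjusted threshold of 0.05 and 0 a negative one, against 3.67% of all genes with a positive slope. These were 21 of the 26 variable members plus Defb9 and Defb43. The median r with Rnase9 was 0.86 in members and -0.21 in all genes. Defb39 rose by 0.99 ± 0.06 (SE) per log2 unit of Rnase9, with r = 0.98 (exact permutation p = 0.000273), rho = 0.88 (exact p = 0.00724) and adjusted p = 0.000237. Defb12 rose by 0.97 ± 0.07 per unit, with r = 0.97 (exact p = 0.000422), rho = 0.95 (exact p = 0.00114) and adjusted p = 0.000369. Defb42 had the ranks of the 8 mice in the same order as Rnase9, with r = 0.95 (exact p = 2.5e-05), rho = 1 (exact p = 5e-05) and adjusted p = 0.00148, both exact values being the smallest these permutations can give.

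These calls rest on the top pair of arrays. Without vehicle mice 1 and 4, which lay farthest from the median of Rnase9, limma called 0 members. Over the other 6 arrays r was then 0.92 for Defb39, 0.88 for Defb12 and 0.93 for Defb42. Across the 23 members it ran from -0.74 (Defb10) to 0.93, with a median of 0.77, and it was positive in 20. Defb10, Defb15 and Defb19 had negative values, -0.74, -0.11 and -0.28, so the positive r of these 3 rested on those mice. Defb2, Defb11, Defb38 and Defb13 kept a positive r of 0.16, 0.37, 0.44 and 0.55. Over all genes 996 passed in either direction on the 8 arrays. With vehicle mouse 1 left out 10 members and 177 genes passed, with vehicle mouse 4 left out 14 and 591, and with prednisolone mouse 4 left out 17 and 612. Within the 4 prednisolone mice alone 0 members and 0 genes passed, and within the 4 vehicle mice 18 members and 357 genes.

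**Figure D2:**
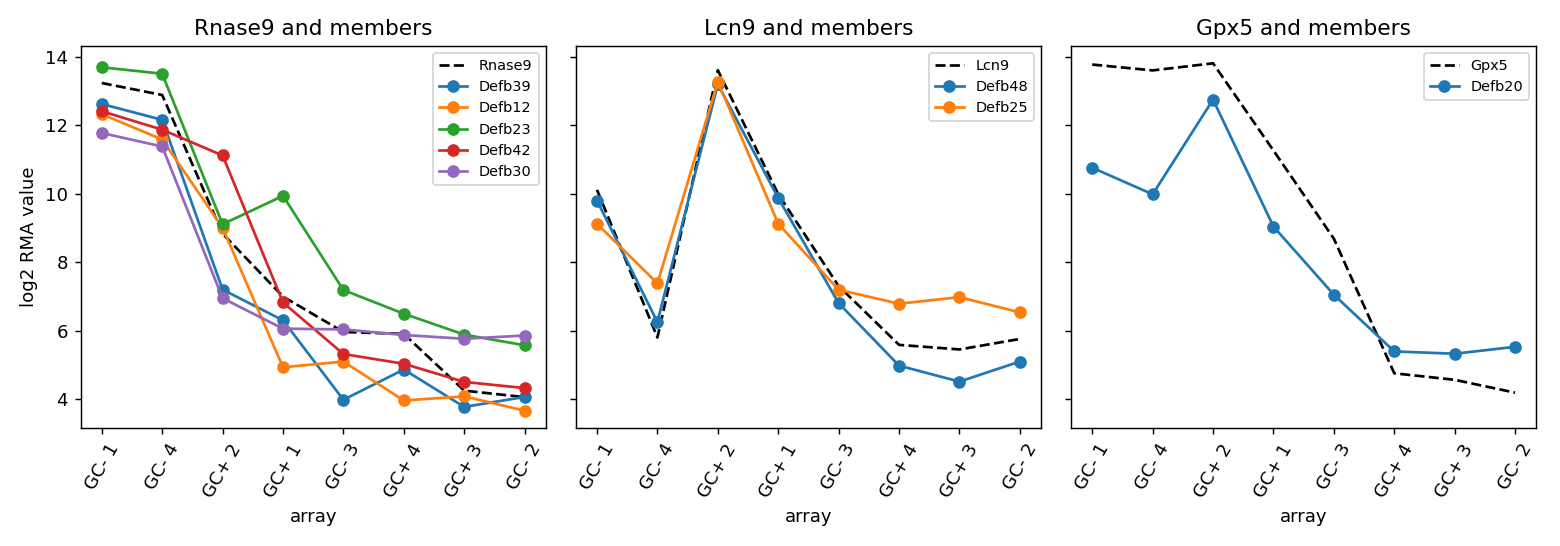
Log2 values of 8 beta-defensins (points and solid lines) and of the 3 reference genes (dashed lines), with the 8 mice along the x axis of each panel from the highest to the lowest Rnase9 value. Levels of different genes are not comparable, and the shape of each line is what the plot shows: Defb39 is highest in vehicle mice 1 and 4 like Rnase9, whereas Defb48 peaks in prednisolone mouse 2 and is low in vehicle mouse 4 like Lcn9.

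Another pattern followed Lcn9. Defb48 read 9.88, 13.20, 4.51 and 4.98 in prednisolone mice 1 to 4 and 9.80, 5.10, 6.81 and 6.25 in vehicle mice 1 to 4. Prednisolone mouse 2 was highest, prednisolone mouse 1 and vehicle mouse 1 were nearly equal, and vehicle mouse 4, one of the top pair for most members, was below vehicle mouse 3. Defb25 read 9.12, 13.27, 6.98 and 6.79, then 9.13, 6.54, 7.20 and 7.38, again with prednisolone mouse 2 alone at the top and vehicle mouse 4 low. These were the 2 members with a positive slope on Lcn9 past the threshold, out of 8 such genes (0.0361% of those tested), and 0 members had a negative one. Defb48 rose by 1.02 ± 0.05 per log2 unit of Lcn9, with r = 0.99 (exact p = 5e-05), rho = 0.98 (exact p = 0.000397) and adjusted p = 0.000195. Defb25 rose by 0.72 ± 0.07 per unit, with r = 0.96 (exact p = 0.00176), rho = 0.88 (exact p = 0.00724) and adjusted p = 0.0151.

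The other 6 genes called with Lcn9 were Lcn8, a lipocalin of the first epididymal segment, Cst11, a cystatin of the epididymis, Adam28, Teddm2, Pate5 and Ly6g5b. With Rnase9 the same pair of members had r of 0.46 (Defb48) and 0.36 (Defb25), with rho of 0.67 and 0.86. Without vehicle mice 1 and 4 their r with Rnase9 was 0.93 and 0.90, so the low values rested on those mice. By rho, Defb25 lay closer to Gpx5 (0.95) than to Lcn9 (0.88). Without prednisolone mouse 2 and vehicle mouse 1, the arrays farthest from the median of Lcn9, r with Lcn9 was 0.97 for Defb48 and 0.92 for Defb25, and limma called 0 genes. Leaving out single mice, Defb48 passed each time, and 1 member passed in all without prednisolone mouse 2, 3 or 4 or vehicle mouse 2. The median r with Lcn9 over all 41 members was 0.28, against -0.10 in all genes.

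Defb20 stood between both patterns. It read 9.04, 12.75, 5.33 and 5.40 in prednisolone mice 1 to 4 and 10.76, 5.53, 7.05 and 9.99 in vehicle mice 1 to 4, so that prednisolone mouse 2 led and vehicle mice 1 and 4 and prednisolone mouse 1 followed. It was the 1 member with a slope on Gpx5 past the threshold, and 3 genes (0.0135%) passed in all, the others being Adam7, a membrane protein of the epididymis, and Cuzd1. Its slope was 0.62 ± 0.07 per log2 unit of Gpx5, with r = 0.96 (exact p = 0.000794), rho = 0.93 (exact p = 0.00223) and adjusted p = 0.0465. Without prednisolone mouse 3 and vehicle mouse 2, farthest from the median of Gpx5, its r was 0.93 and limma called 0 genes. Its adjusted p lay close to the threshold, and 0 genes passed once quantile normalization was repeated or a trended, robust variance was used. The count of members called with Gpx5 moved between 0 and 5 when single mice were left out, with 5 without prednisolone mouse 1, where 198 genes passed in all, 1 without prednisolone mouse 2 and 0 without any other mouse. Of the 26 variable members, 23 had their highest r with Rnase9, Defb48 and Defb25 with Lcn9 and Defb20 with Gpx5. In total 123 correlations between members and reference genes were computed, and the p-values printed after r and rho are not adjusted.

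**Figure D3:**
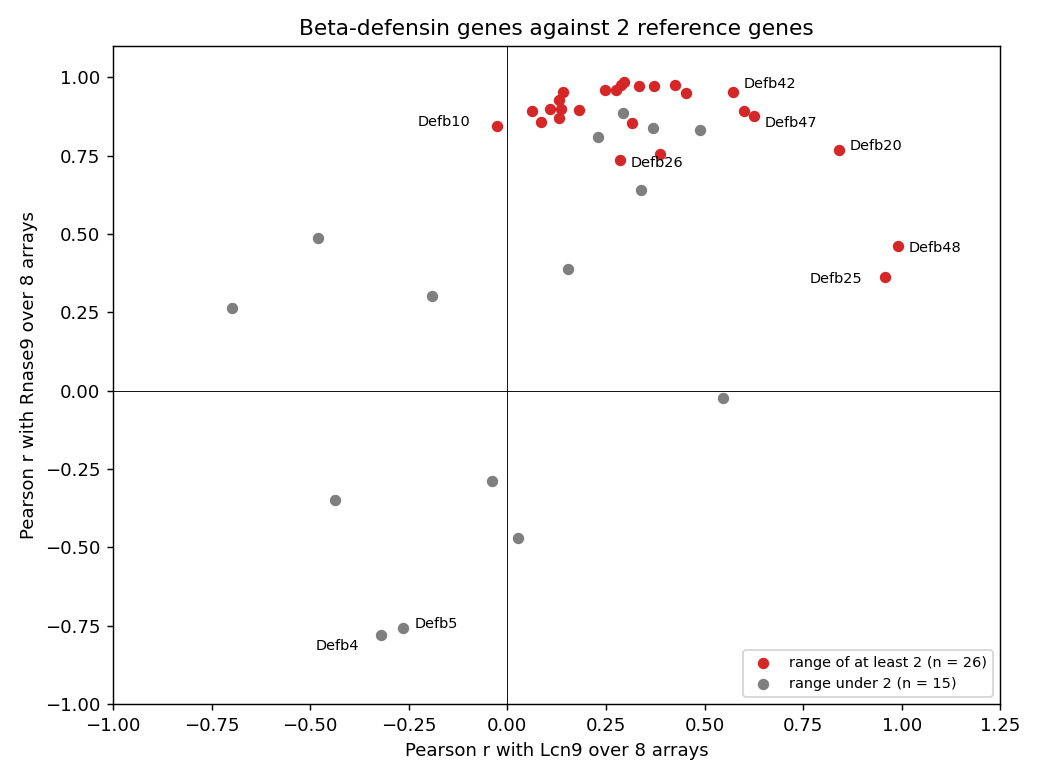
Pearson's r of each beta-defensin with Lcn9 (x axis) and with Rnase9 (y axis) over the 8 mice, with red points for a range of at least 2 and grey points for a smaller range. Variable members crowd at high r with Rnase9 and low to middling r with Lcn9, while Defb48 (0.99 and 0.46) and Defb25 (0.96 and 0.36) lie at the lower right.

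In 16 of 41 members, 9 of them variable, prednisolone mouse 1 read higher than prednisolone mouse 2, the reverse of the order of all 3 reference genes. The share of all genes with this order was not counted, so no excess is claimed. Some gaps were small and between dim values, as in Defb10 (3.64 against 3.60) and Defb40 (3.44 against 3.02). The variable ones were Defb2, Defb10, Defb11, Defb22, Defb23, Defb26, Defb28, Defb38 and Defb40, of which 4 are described here. Defb11 read 6.40, 3.66, 3.07 and 3.02 in prednisolone mice 1 to 4 and 9.71, 3.38, 2.89 and 9.16 in vehicle mice 1 to 4. Defb38 read 7.62, 4.57, 3.95 and 3.44, then 9.78, 3.61, 4.17 and 8.18. In both, prednisolone mouse 1 was the third highest array and prednisolone mouse 2 lay with the 5 low arrays. Defb22, whose peptide is part of the sperm surface coat, was named after its values were seen for the same order: it read 7.07, 4.40, 3.72 and 4.23, then 8.30, 3.92, 4.21 and 5.99. Defb26, its neighbour in the genome and named for the same reason, read 6.83, 4.09, 4.26 and 3.89, then 8.58, 4.33, 4.06 and 6.17. In these last genes prednisolone mouse 1 exceeded vehicle mouse 4 as well. Neither passed with any reference gene, and their r with Rnase9 was 0.76 (Defb22) and 0.74 (Defb26).

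The other 15 members had a range under 2. In 9 of them every array lay below 5.82, in the span where RMA compresses differences. Averaged over the 15, levels were 4.98, 4.95, 4.94 and 4.89 in prednisolone mice and 5.19, 4.98, 4.78 and 5.03 in vehicle mice. Their small spread is not a separate result, since these members were picked for a narrow range. Defb8, whose promoter is shown above, read 4.34, 3.99, 3.96 and 4.26, then 3.94, 4.45, 4.34 and 4.28, with the groups overlapping. Prednisolone mice 2 and 3 and vehicle mouse 1 lay below the other 5 mice, by a gap of 54.2% of a range of 0.51. Defb5 read 4.27, 4.49, 4.68 and 4.60, then 4.28, 4.64, 4.30 and 4.14, and Defb7 read 6.00, 5.21, 5.87 and 5.42, then 5.46, 5.28, 5.52 and 4.97. Defb3, Defb4 and Defb14, inducible defensins of skin and airway, were all in this class, with ranges of 0.84, 0.50 and 0.64.

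Along the genome, variable and level members lay partly in runs. In RefSeq's gene order on GRCm38.p6, splitting at gaps over 500 kb, the members fell into 4 groups of several members, and Defb18 (range 3.17) and Defb33 (1.11) each stood alone. In the largest group the order was Defb40, Defb37, Defb38, Defb39, Defb12, Defb34, Defb14, Defb4, Defb6, Defb46, Defb5, Defb3, Defb8 and Defb7. Its first 5 members had ranges from 2.42 to 8.85, and the 9 that follow had ranges from 0.50 to 1.69. Spag11b and Spag11a, epididymal genes for defensin-like sperm-binding proteins, lie between Defb34 and Defb14 and had ranges of 4.68 and 6.78. Spag11a had r = 0.98 with Rnase9 as Defb39 did, so a strongly varying gene also lay within the stretch of level members.

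The group from Defb23 to Defb25 held 11 members, of which 9 varied: Defb23, Defb20, Defb22, Defb26, Defb28, Defb29, Defb21 and Defb19 in a row, then Defb45 and Defb36 with ranges of 0.75 and 0.66, then Defb25. Its ends differed in pattern over all mice, since Defb23 had r = 0.97 with Rnase9 and Defb25 had r = 0.36. Without vehicle mice 1 and 4 these values were 0.86 and 0.90. The group of Defb48, Defb47, Defb43, Defb30 and Defb42 held 4 variable members of 5, and its ends also differed. Defb48 went from 9.80 in vehicle mouse 1 to 6.25 in vehicle mouse 4, whereas Defb42 was 12.41 in the former and 11.87 in the latter. Defb47, next to Defb48, read 7.12, 10.59, 7.07 and 6.71, then 10.85, 6.58, 6.84 and 9.80, high in prednisolone mouse 2 and in vehicle mice 1 and 4 alike. The group of Defb1, Defb50, Defb2, Defb10, Defb9, Defb11, Defb15, Defb35 and Defb13 held 7 variable members of 9, the exceptions being Defb50 (0.42) and Defb9 (0.65). The alpha-defensins, related peptides known from the gut, lie between Defb33 and Defb1 in this order. None of their 10 measured genes had a range of at least 2, and 2 passed upward with Rnase9, against 3.67% of all genes. These were Defa35 (range 1.88) and Defa39 (1.66), and vehicle mice 1 and 4 were the top pair in both.

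No member passed the test between prednisolone and vehicle mice. Limma called 0 of 41 members and 0 of 22180 genes (0.0%) at an adjusted threshold of 0.05, and no member had an adjusted p lower than 0.791. Before adjustment, 2 members (Defb33 and Defb14) were under 0.05, against 5.61% of all genes. The groups did not overlap in 1 member, Defb33, against 3.25% of all genes, so both counts were near the background. Differences, given as prednisolone minus vehicle, were negative in 34 members and positive in 7, with a median of -0.75 against 0.02 in all genes. Since the members share mice and patterns, this majority is not a count of independent results. In the variable members 24 of 26 differences were negative, with a median SE of 1.19, compared with 0.15 in the other members and 0.13 in all genes. These members were picked for a wide range, which itself brings a wide SE, so that contrast is not a separate result.

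Defb33 read 6.10, 6.18, 6.69 and 6.06 in prednisolone mice 1 to 4 and 5.76, 5.78, 5.58 and 5.94 in vehicle mice 1 to 4. Every prednisolone mouse was above every vehicle mouse, with means of 6.26 ± 0.29 (SD, n = 4) and 5.76 ± 0.15 (SD, n = 4). The difference was 0.49 ± 0.15 (SE) with an adjusted p of 0.791 in limma. Defb14 read 4.36, 4.05, 4.36 and 4.40, then 4.68, 4.40, 4.55 and 4.69, and the groups overlapped between prednisolone mouse 4 and vehicle mouse 2. Its difference was -0.29 ± 0.11, adjusted p = 0.791 in limma. Defb7 (0.32 ± 0.20) and Defb5 (0.17 ± 0.13) had the next lowest p among positive differences, and neither passed.

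Negative differences of the variable members came with wide errors. Defb39 was 5.54 ± 1.52 (SD, n = 4) in prednisolone mice and 8.21 ± 4.83 (SD, n = 4) in vehicle mice, a difference of -2.67 ± 2.11 (SE) with limma adjusted p = 0.809. Defb12 differed by -2.67 ± 2.09 and Defb30 by -2.60 ± 1.38, the nearest to it in size. Defb13 (-2.24 ± 1.05) and Defb2 (-1.83 ± 0.82) are given for having the lowest p, after Defb14, among negative differences, and none of these passed. In each of these 5 genes vehicle mice 1 and 4 were the top pair, while vehicle mice 2 and 3 lay within or below the span of the prednisolone mice. The SD was higher in the vehicle group in 23 of the 26 variable members. This is not a separate result, since the members were picked for a wide range and 23 were highest in vehicle mouse 1. Defb48 and Defb25 had positive differences, 1.15 ± 1.92 and 1.48 ± 1.34, and were the 2 variable members to do so. Without vehicle mouse 1 the median difference of the members was -0.25, without prednisolone mouse 3 it was -0.38 and without vehicle mouse 4 it was -0.48. Leaving out vehicle mouse 2 or 3 moved it the other way, to -1.15 and -1.20. Without the 3 arrays brightest in Gpx5 (prednisolone mouse 2, vehicle mice 1 and 4) it was 0.13, and Defb39 then differed by 0.96. Prednisolone mouse 1, where Gpx5 read 11.27, was kept in that comparison.

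**Figure D4:**
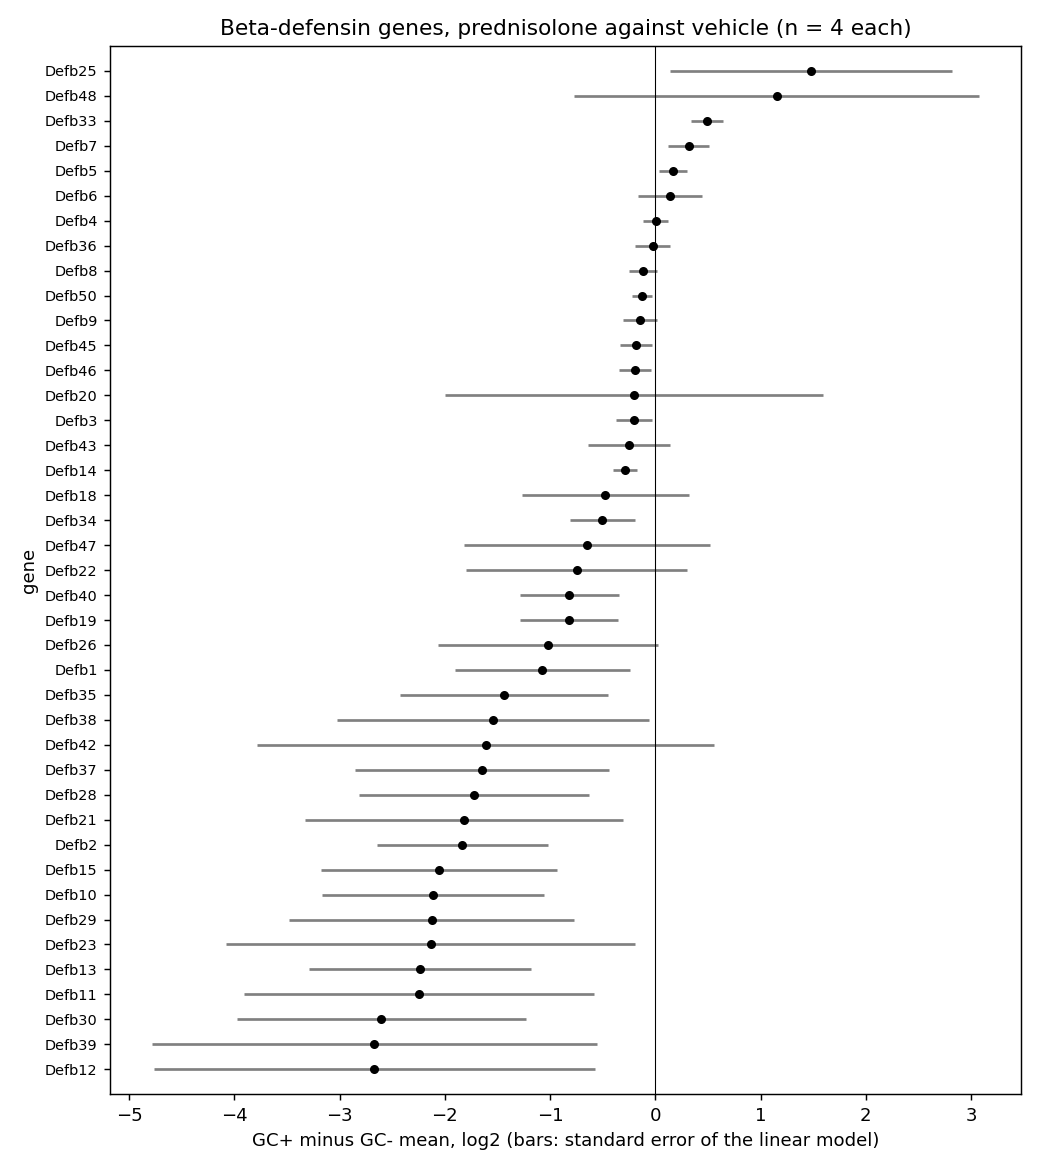
Difference between prednisolone and vehicle means (log2) for each of the 41 beta-defensins, with bars of 1 SE from limma and members sorted by difference. Errors are wide for variable members, 34 points lie below 0, and Defb33 at 0.49 has the lowest p.

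Other genes of the duct were compared with Rnase9 in the same fit, in which 3.67% of all genes passed upward. Of 27 measured markers of epididymal epithelium 25 had a range of at least 2, and of the 26 tested with Rnase9, which is itself one of the 27, 15 passed upward and 0 downward. Of 23 other antimicrobial and sperm-coat proteins of the epididymis 16 had such a range, 9 passed upward and 14 did not pass. Among these Wfdc10, a protease inhibitor-like protein, ranged over 6.08 and passed with Rnase9 (r = 0.95), whereas Wfdc2 ranged over 0.48. Of 15 receptors and regulators of beta-defensins, 0 passed upward and 1, Tlr4, passed downward, and 1, Ccr2, had a range of at least 2. Ccl20, a chemokine that shares the receptor of beta-defensins, stayed between 6.28 and 6.69.

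Markers of other cells were read beside these. Of 8 markers of mesothelium and keratin-bearing epithelium 3 passed upward with Rnase9, namely Epcam, Krt8 and Krt18, while Msln, the mesothelial marker, had r = -0.70. Of 8 genes listed for seminal vesicle and vas deferens 1, Aqp9, passed upward, and it alone had a range of at least 2. The seminal vesicle protein gene Svs2 stayed between 3.68 and 4.09. Whether Aqp9 marks those tissues apart from the epididymis was not tested. Of 11 markers of testis and sperm 8 had a range of at least 2 and 1, Spata3, passed upward. Their mean was 7.06, 6.96, 8.50 and 6.85 in prednisolone mice and 9.19, 6.60, 7.61 and 8.24 in vehicle mice, so prednisolone mouse 3, low in the beta-defensins, came next after vehicle mouse 1 for them. Of 13 adipocyte markers and of 12 macrophage and neutrophil markers 0 passed in either direction in limma. Over all 8 arrays the means of both lists nevertheless ran opposite to Rnase9, with r of -0.84 (adipocyte) and -0.82 (macrophage and neutrophil). These r were not computed without vehicle mice 1 and 4. Of the other mice, prednisolone mouse 2 had the highest Rnase9 and vehicle mouse 2 the lowest. Their macrophage and neutrophil means were 7.72 and 7.75, and their adipocyte means 12.21 and 12.44. The macrophage and neutrophil mean was 8.03, 7.72, 8.02 and 7.93 in prednisolone mice and 7.43, 7.75, 8.14 and 7.44 in vehicle mice, lowest in vehicle mice 1 and 4, where most members were highest. The adipocyte mean was lowest in vehicle mouse 1 as well, at 12.03. In no list did limma call a gene between prednisolone and vehicle. The part of these cells in the members' readings was not tested.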

How the data were processed

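RNA from 8 fat pads, 1 array per mouse with 100 ng of RNA, was measured on Affymetrix Mouse Gene 2.0 ST arrays, and the labels call the replicates biological. The deposited values are log2 values made by the authors with RMA in Affymetrix Expression Console, per the submitters' processing notes, which also name Partek 6.6 with no role. RMA subtracts background and equalizes array distributions, so it compresses dim values and hides a shift common to an array. Neither the genome build nor the annotation version behind the values is given in the sources used here. Arrays have no read depth, and their number limits the precision.

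Of 41345 probe sets, 23521 had 1 gene symbol in the platform annotation, 1814 several and 16010 none. Several-symbol sets were not named. The set with the highest mean over the 8 arrays stood for each gene, giving 22180 genes with dim ones kept. Limma 3.58.1 (lmFit, eBayes, R 4.3.3) compared 4 GC+ with 4 GC- mice and fitted slopes on Gpx5, Lcn9 and Rnase9, without covariates, adjusted by Benjamini-Hochberg at 0.05. Correlations had two-sided exact permutation tests over all 40320 pairings, whose smallest p is 2.5e-05 for r and 5e-05 for rho. The group test and the slope fit on Gpx5 were tried on simulated data, in which noise was independent between genes. On average 5.6% and 6.4% of their calls were false. Patterns shared between genes, as seen here, were not simulated, nor were the fits on Lcn9 and Rnase9. Named members were the 12 widest ranges, the 3 lowest p in each direction and Defb1, and of each marker list the highest and lowest r with Gpx5. Others are named as chosen after their values were seen where the text says so, or by gene order. Members, lists and tests were chosen with earlier results of these data known. Alternatives changed the normalization, dim filter, variance model, covariates and block, and left out mice. Promoters are from RefSeq on GRCm38.p6. Figures used matplotlib 3.10.9.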

Additional observations from a re-analysis of the deposited data

Results flagged for a closer look

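Defb14 in prednisolone mouse 2 read 4.05, far from the other 3 prednisolone mice, the nearest of which read 4.36. The gap took 0.87 of the group's range, above Dixon's critical value for 4 samples. It was the 1 such case among 44 groups checked, and chance alone flags about 1 in 20. Without this mouse the difference of Defb14 between prednisolone and vehicle was -0.21 and, as with it, did not pass.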

How the results depend on the processing

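The count of 0 calls between prednisolone and vehicle held under every alternative run. The median difference of members ran from -1.20 to -0.25 when each mouse was left out. It was -1.67 over the 18 members left without the dimmest genes. With Gpx5 as a covariate it was -0.41, and without the 3 arrays brightest for Gpx5 it was 0.13. The count of members with a range of at least 2 ran from 24 to 26 when each mouse was left out. Vehicle mice 1 and 4 were the top pair in 19 of the 26, so leaving out 1 of them keeps the other. This count therefore says little on how far the ranges rest on that pair, and it was not made without both. Members called with Rnase9 were 23 of 41. Without the dimmest genes they were 12 of the 18 members left, all of them among the 23. They were 0 both in prednisolone mice alone and without the pair of arrays farthest from the reference, an alternative added after the data were seen. Genes called with Rnase9 in either direction were 996, and 515 with treatment as a covariate, 357 in vehicle mice alone and 0 in prednisolone mice alone or without the farthest arrays. For Lcn9, members called went from 2 to 1 with treatment as a covariate, and members and genes to 0 in vehicle mice alone and without the farthest arrays. For Gpx5, members and genes went to 0 when quantile normalization was repeated, with a trended robust variance, with treatment as a covariate, in vehicle mice alone and without the farthest arrays, and to 0 members and 1 gene in prednisolone mice alone. Leaving out each mouse gave 177 to 1031 genes and 10 to 23 members for Rnase9, 5 to 14 and 1 to 3 for Lcn9, and 0 to 198 and 0 to 5 for Gpx5. Fewer arrays were fitted in the subsets. The cause of the other changes was not tested.

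Without the 3 arrays brightest for Gpx5, differences turned positive for Defb38 (1.11), Defb23 (1.06), Defb11 (1.03), Defb39 (0.96), Defb42 (0.63), Defb21 (0.47), Defb20 (0.30) and Defb29 (0.0006). Prednisolone mouse 1, where Gpx5 read 11.27, was kept. It read 7.62 for Defb38, against 3.95 and 3.44 in prednisolone mice 3 and 4, and 6.40 for Defb11, against 3.07 and 3.02. For Defb23 it read 9.94, against 5.89 and 6.50. The differences were not computed without that mouse as well. Defb20 was 0.73 with Gpx5 as a covariate and ran from -1.74 to 0.73 when each mouse was left out, and Defb48 from -0.53 to 2.36.

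With the replicate number as a block, 0 members and 0 genes were called and the median difference was -0.75. Deviations of same-numbered mice correlated at -0.14, -0.49, 0.11 and -0.23 across genes, so no likeness by number was seen. These values cannot settle whether the numbers mark a pairing, since differences between single mice were large. In 10 members no array lay above 5.82, where RMA compresses differences.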

Other observations

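The probe set that names both Defb41 and Gm15386 varied like the variable members: it read 5.05, 9.23, 3.64 and 2.97 in prednisolone mice 1 to 4 and 9.55, 3.09, 3.69 and 8.57 in vehicle mice 1 to 4. Its signal cannot be assigned to either gene. The probe set shared by Defb42 and 2700070H01Rik had a range of 0.72, while the set that names Defb42 alone had 8.09. Defb44-ps, a pseudogene, had a range of 0.47.

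Spag11b and Spag11a, which lie beside each other, differed in pattern. Spag11a read 6.31, 8.84, 5.73 and 6.04 in prednisolone mice and 12.51, 6.00, 6.26 and 11.91 in vehicle mice, so vehicle mice 1 and 4 led. Spag11b read 6.97, 10.59, 6.06 and 5.91, then 8.47, 6.07, 6.01 and 8.13, so prednisolone mouse 2 led. The difference between both patterns was not tested. Crisp4, a sperm-binding protein of the epididymis that lies on the chromosome of Defb18, had a range of 7.00.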
